A study of Mus musculus with 24 samples.

Results

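The comparison concerns untreated neurons of the embryonic mouse cortex that lack the transcription factor ATF4, set against untreated wild-type neurons, on chips 2 and 3 of the 3 Illumina Mouse Ref-8 BeadChips used. It rests on 8 of the 24 arrays of the series, chosen by their titles: replicates 5 to 8 of the untreated knockout (KO) and replicates 5 to 8 of the untreated wild type (WT). Replicates 5 and 6 of each genotype lay on chip 2 and replicates 7 and 8 on chip 3. The other arrays were 4 untreated arrays of each genotype on chip 1, and 4 arrays of each genotype treated with HCA on chips 2 and 3. All 8 arrays had the same control treatment, and the 2 groups differed only in the labelled genotype. The source name of KO replicate 7 leaves out the word KO, and its title gives the genotype. The labels and files used here do not give the strain, the disrupted part of the gene, or the age of the embryos and cultures. They also do not say whether replicates came from separate cultures, so the p-values reflect only how far these samples spread, which may be technical. The number of arrays limits the precision.

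ATF4 is a bZIP transcription factor whose translation rises when stress kinases phosphorylate the initiation factor eIF2, a route known as the integrated stress response. Together with partner factors such as C/EBP proteins it binds a composite DNA element and activates genes for amino acid synthesis and uptake, tRNA charging, redox balance and feedback control of translation. In neurons it is known for its part in the response to oxidative stress and in cell death. The comparison asks which genes depend on genotype when no stressor has been added.

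Values below are log2 normalized intensities. Where 4 values follow a genotype they are those of replicates 5, 6, 7 and 8 in that order. A difference is the KO mean minus the WT mean on the log2 scale from a fit with a term for chip, ± its SE (n = 4 arrays a genotype), with a Benjamini-Hochberg adjusted p from limma over all 7493 genes tested. A gene was called at an adjusted p under 0.05. It was tested if its probe was detected on at least 4 of the 8 arrays.

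The Atf4 probe served to check the genotypes. Its log2 intensity was 4.79, 5.14, 4.80 and 4.76 in KO and 9.50, 9.32, 9.43 and 9.39 in WT. It was detected on 0 of 4 KO arrays and 4 of 4 WT arrays, and the genotypes did not overlap. With the lowest detected signal of each KO array as the bound there, Atf4 fell by at least 12.3-fold (limma, adjusted p = 9.89e-08), the largest difference of any called gene. No label or file used here gives the part of the transcript that the probe reads. For other genes detected in one genotype alone, a fold written as at least N is a bound of the same kind. Such a gene passed the detection filter through that genotype alone, so the filter fixed its direction. This holds for 14 of the 809 lower genes, Atf4 included, and 2 of the 732 higher genes.

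The mean raw signal was 418, 436, 669 and 296 on the KO arrays and 537, 342, 428 and 428 on the WT arrays, and an array detected 37.4% to 42.7% of its probes. KO replicate 7 was the brightest array and KO replicate 8 the dimmest. Arrays of the same genotype correlated at r = 0.982 to 0.991 over the tested genes and arrays of different genotype at 0.961 to 0.979. Markers of the labelled cell type were present. Of the 14 pan-neuronal genes on the array, 12 were tested, and their mean log2 level lay between 9.99 and 10.08 in KO and between 9.89 and 9.99 in WT. The Y-linked gene Eif2s3y was unevenly spread, at 9.32, 9.14, 8.54 and 8.60 in KO and at 8.61, 4.86, 4.77 and 8.15 in WT, so that it was detected on 4 KO arrays and on WT replicates 5 and 8 alone. Kdm5d, another Y-linked gene, was likewise low on WT replicates 6 and 7, with 7.66, 7.24, 6.77 and 6.58 in KO and 6.96, 4.57, 4.63 and 6.32 in WT. The labels do not give the sex of the embryos. With the Eif2s3y level as a covariate, which was added after the data were seen, 710 genes were called in place of 1541, and the counts of lower genes that this moved by over 1.5 times are given with their lists.

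Over the 7493 genes tested, 1541 were called (20.6%). Of these, 732 were higher in KO (9.77% of the tested genes) and 809 lower (10.8%). Counts of higher and lower genes in the lists below are read against these shares. At 1.5-fold or more, 120 called genes were higher (1.60%) and 382 lower (5.10%). All 4 KO arrays lay above all 4 WT arrays for 830 genes (11.1%) and below them for 913 (12.2%). The median difference over all tested genes was 0.03. Median centring over all probes, in place of quantile normalization, moved that median to 0.14 and left 193 called genes, 43 of them higher and 150 lower, whereas centring on the median of the tested genes, an alternative added after the data were seen, left 1375 (611 higher and 764 lower). The number and split of the calls thus differ with the centring used. The differences given below are those with quantile normalization, and median centring below means the centring over all probes unless the tested genes are named.

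Both KO arrays lay on the same side of both WT arrays on chip 2 and on chip 3 for 2460 of the 7493 tested genes. Across the tested genes the differences on chip 2 and chip 3, which come from separate arrays, had a Pearson r of 0.81, where genes are not independent replicates. A test of the genotype difference between the 2 chips called 0 genes (0.00%, limma), with 196 at an unadjusted p under 0.05. It also called 0 with probes detected on all 8 arrays (153 unadjusted) and with median centring (1 unadjusted). The test rests on 2 arrays per genotype and chip, so its 0 calls do not show that the chips agree.

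**Figure D1:**
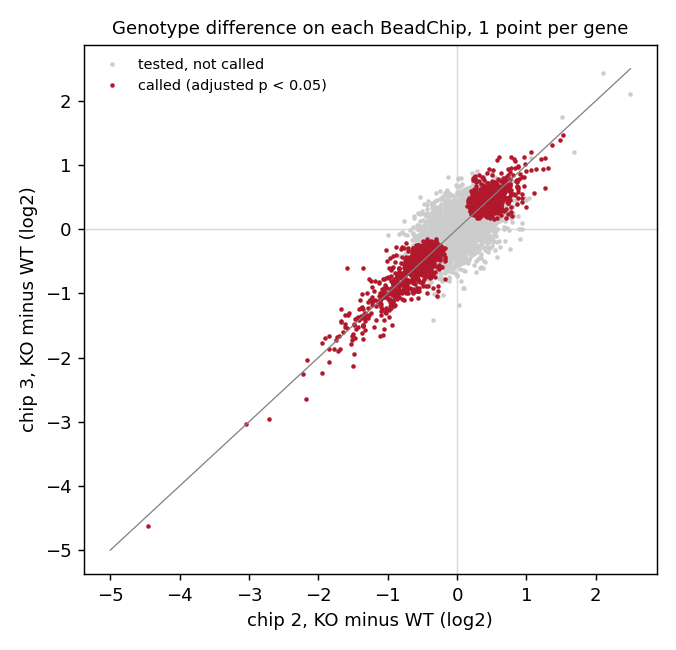
The genotype difference (KO minus WT, log2) of each tested gene on chip 2 (horizontal) against chip 3 (vertical), with the 1541 called genes in red, the other tested genes in grey and the line of equality. The called genes, which were chosen by the mean of both chips, lie at the lower left and upper right, and Atf4 is the point at -4.45 on chip 2 and -4.63 on chip 3.

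Many genes of the ATF4 programme lay below WT. Of 14 regulators of this stress response that were tested, 7 were lower and 1 higher, with a median difference of -0.41. Chac1, an enzyme that breaks down glutathione, had log2 intensities of 7.10, 7.04, 6.45 and 6.81 in KO and 9.06, 9.44, 9.45 and 9.12 in WT, and was 5.34-fold lower (-2.42 ± 0.15, adjusted p = 4.24e-05). Eif4ebp1, which holds back cap-dependent translation, stood at 7.22, 7.49, 7.53 and 7.00 in KO and 9.34, 9.26, 9.48 and 9.53 in WT, 4.25-fold lower. In neither gene did any KO array reach the lowest WT array. Atf5, a bZIP factor related to ATF4, was 2.88-fold lower, with KO arrays between 7.50 and 7.94 and WT arrays between 9.11 and 9.39. Nupr1, a small stress-induced nuclear protein, was detected on 0 KO and 4 WT arrays and was at least 1.90-fold lower (adjusted p = 0.000110). Its direction was fixed by the filter, which leaves 6 other lower regulators. Herpud1, of ER-associated degradation, Vegfa, the angiogenic growth factor, and Cebpb, a C/EBP factor that pairs with ATF4, fell by 0.80, 0.74 and 0.48 on the log2 scale.

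Other genes of the same pathway were not called or not detected, or were called in fewer settings. Ddit3, which encodes CHOP, stood at 7.69, 8.01, 7.98 and 8.11 in KO and 7.64, 7.95, 8.14 and 7.87 in WT, a difference of 0.05 ± 0.11 (adjusted p = 0.805) with overlapping genotypes. Ppp1r15a, the stress-induced subunit of the eIF2 phosphatase, was the member called higher (0.28), a call lost without any one of KO replicates 5, 6 and 7 or WT replicates 5, 6 and 7. Trib3, Atf3, Sesn2 and Fgf21 were not tested, being detected on too few arrays. Hmox1, heme oxygenase, stood at 6.70, 7.03, 6.89 and 7.27 in KO and 7.40, 8.17, 7.45 and 7.53 in WT and was 1.59-fold lower (adjusted p = 0.0397). That call was lost in 12 of 29 alternative settings.

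Amino acid synthesis was the part of the programme with the largest share of lower genes. Of 10 tested genes of amino acid synthesis and one-carbon metabolism, 7 were lower and 0 higher, with a median of -0.79 against 0.03 for all tested genes. Psat1, of serine synthesis, had 8.41, 8.50, 8.45 and 8.28 in KO and 10.07, 10.22, 10.23 and 10.23 in WT, 3.42-fold lower (-1.77 ± 0.08, adjusted p = 1.97e-05), and a further probe gave -1.63. Phgdh, which opens the same serine pathway, was detected on 0 KO and 4 WT arrays and was at least 1.99-fold lower, a direction fixed by the filter that leaves 6 other lower genes of the 7. Asns, asparagine synthetase, had 9.08, 9.35, 8.65 and 8.89 in KO and 10.22, 10.17, 10.25 and 10.04 in WT, 2.26-fold lower, and a further probe gave -1.02. These genes were separated by genotype on every array. The mitochondrial folate enzymes Shmt2 and Mthfd2 were 1.96-fold and 1.55-fold lower, with SE of 0.09 and 0.08 on the log2 scale.

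Of 12 tested amino acid transporters, 5 were lower and 1 higher. Slc7a3, a carrier of cationic amino acids, had 5.62, 6.11, 5.61 and 6.35 in KO, where 2 of 4 arrays detected it, and 8.90, 8.90, 8.95 and 9.10 in WT, 8.23-fold lower (-3.04 ± 0.17, adjusted p = 4.24e-05). Slc7a5, which imports large neutral amino acids, had 9.37, 9.56, 9.63 and 9.47 in KO and 11.04, 11.35, 11.16 and 11.30 in WT, 3.26-fold lower. Its partner subunit Slc3a2 was 1.66-fold lower. The glycine transporter Slc6a9 was 3.08-fold lower, with KO arrays between 7.21 and 7.57 and WT arrays between 8.86 and 9.22. The remaining lower member was Slc1a4, a carrier of small neutral amino acids (-0.42), and the higher member was Slc6a17 (0.31), whose call was lost without KO replicate 6, WT replicate 5 or WT replicate 8. Slc7a11, the cystine carrier, was detected on 0 of the 8 arrays and was not tested. The list's median was -0.10, and 6 of the 12 were not called. With median centring 4 stress regulators, 3 amino acid synthesis genes, 3 transporters and 1 cytosolic tRNA synthetase were called lower, and with centring on the tested genes 7, 7, 5 and 4.

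Of 12 tested cytosolic tRNA synthetases, which charge tRNAs with their amino acids, 5 were lower and 0 higher, with a median of -0.17. Cars, for cysteine, had 7.28, 8.11, 8.13 and 7.33 in KO and 9.01, 9.20, 9.14 and 9.16 in WT, 2.67-fold lower, and its KO arrays spread more (SD 0.47) than its WT arrays (SD 0.08). Aars, for alanine, was 1.60-fold lower and Nars, for asparagine, 1.57-fold lower. Sars, for serine, was 1.27-fold lower, a call lost in 13 of 29 alternatives, and a further probe gave -0.13. Tars fell by 0.30 on the log2 scale. With the Eif2s3y covariate 2 of the 12 were lower, and 3 were without KO replicate 7, WT replicate 7 or WT replicate 8. Among 9 tested mitochondrial tRNA synthetases, 1 was called, a share of 11.1% lower against 10.8% of all genes. It was Wars2, for tryptophan, detected on 3 KO and 4 WT arrays (1.71-fold lower, a call lost in 11 of 28 alternatives).

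**Figure D2:**
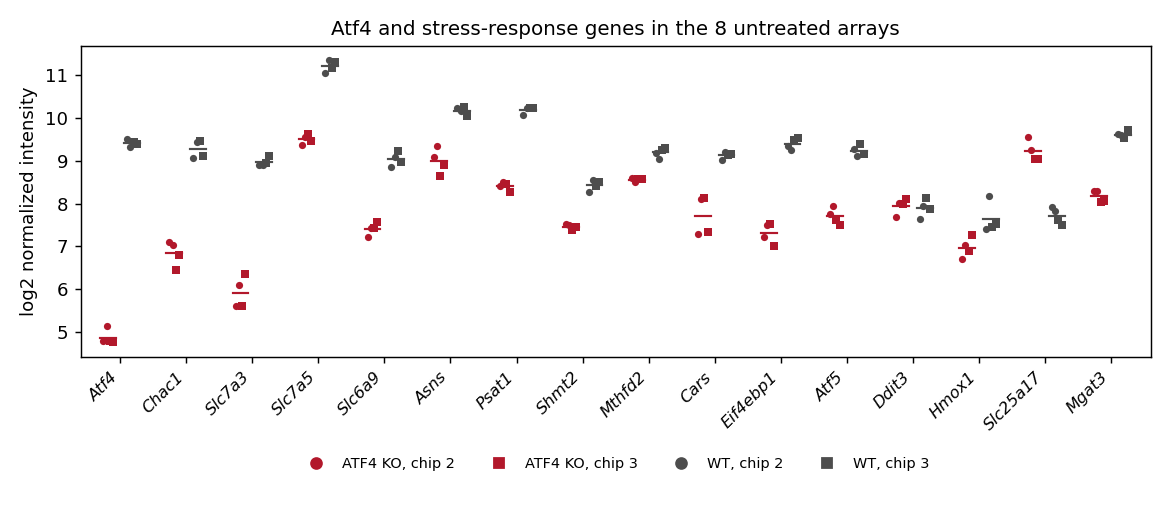
Log2 normalized intensity (vertical) of Atf4, genes of its programme and Slc25a17 and Mgat3, which lie near Atf4, by array: KO in red at the left of each pair and WT in grey at the right, circles for chip 2, squares for chip 3, bars for the mean of 4 arrays. The KO points lie below the WT points for each gene except Ddit3, which overlaps, and Slc25a17, which is higher.

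The promoters of genes lower in KO were searched for the core of the composite element that ATF4 and C/EBP factors are known to bind, TGATGNAA, on either strand (TTNCATCA on the reverse). The sequences came from RefSeq (GRCm38.p6) and ran from 250 bases before to 50 after each start. Of 32851 promoters, 1304 hold a match (3.97%), and by gene 166 of the 6155 tested genes with a promoter in the table hold one (2.70%). Of the 29 genes called lower both here and on the separate arrays of chip 1, 21 had a promoter in the table, and 6 of these (28.57%) hold a match. Of the genes called 1.5-fold or more lower here, 12 of 304 do (3.95%), and of those 1.5-fold or more higher, 3 of 100 (3.00%). Of the genes 1.5-fold or more lower here and further below WT than on chip 1 by the test given further on, 3 of 182 do (1.65%). A match is a run of letters and not a shown site, and these shares were not tested.

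The 6 promoters of genes lower on both sets of arrays are shown because they join the sequence to the expression data, 5′ to 3′ along each gene's strand, with the matches in capitals. They are Chac1 (chr2:119350992-119351291, plus strand), Asns (chr6:7693160-7693459, minus strand), Herpud1 (chr8:94386179-94386478, plus strand), Aars (chr8:111033592-111033891, plus strand), Slc1a4 (chr11:20332664-20332963, minus strand) and Serpinf1 (chr11:75422574-75422873, minus strand). Serpinf1, which encodes the secreted factor PEDF, and Herpud1 and Slc1a4 are shown for their match.
Chac1: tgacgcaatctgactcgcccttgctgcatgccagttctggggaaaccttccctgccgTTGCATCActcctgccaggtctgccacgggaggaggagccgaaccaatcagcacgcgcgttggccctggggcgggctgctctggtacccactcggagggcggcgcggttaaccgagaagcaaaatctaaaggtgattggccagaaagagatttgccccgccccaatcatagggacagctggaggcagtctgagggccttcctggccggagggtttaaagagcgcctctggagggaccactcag
Asns: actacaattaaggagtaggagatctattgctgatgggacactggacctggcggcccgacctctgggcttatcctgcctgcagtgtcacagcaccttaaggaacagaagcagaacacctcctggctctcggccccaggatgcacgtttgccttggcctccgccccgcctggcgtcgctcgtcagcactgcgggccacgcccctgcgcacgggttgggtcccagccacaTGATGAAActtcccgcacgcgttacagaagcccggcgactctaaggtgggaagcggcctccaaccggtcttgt
Herpud1: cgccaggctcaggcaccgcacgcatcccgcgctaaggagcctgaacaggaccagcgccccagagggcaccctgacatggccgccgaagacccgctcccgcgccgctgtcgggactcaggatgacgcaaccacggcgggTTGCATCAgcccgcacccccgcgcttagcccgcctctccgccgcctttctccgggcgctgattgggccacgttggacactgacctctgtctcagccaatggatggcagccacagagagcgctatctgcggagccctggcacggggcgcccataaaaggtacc
Aars: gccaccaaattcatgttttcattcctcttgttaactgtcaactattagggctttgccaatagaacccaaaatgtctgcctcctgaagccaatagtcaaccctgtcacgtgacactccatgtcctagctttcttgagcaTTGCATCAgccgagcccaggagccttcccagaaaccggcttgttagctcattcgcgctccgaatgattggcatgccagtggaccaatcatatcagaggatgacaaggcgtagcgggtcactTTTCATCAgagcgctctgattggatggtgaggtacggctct
Slc1a4: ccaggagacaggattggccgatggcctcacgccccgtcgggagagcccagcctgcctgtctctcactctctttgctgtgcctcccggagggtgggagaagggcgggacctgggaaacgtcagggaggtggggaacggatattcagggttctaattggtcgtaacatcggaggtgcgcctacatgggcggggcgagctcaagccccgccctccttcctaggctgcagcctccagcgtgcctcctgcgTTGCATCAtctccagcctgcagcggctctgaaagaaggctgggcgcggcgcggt
Serpinf1: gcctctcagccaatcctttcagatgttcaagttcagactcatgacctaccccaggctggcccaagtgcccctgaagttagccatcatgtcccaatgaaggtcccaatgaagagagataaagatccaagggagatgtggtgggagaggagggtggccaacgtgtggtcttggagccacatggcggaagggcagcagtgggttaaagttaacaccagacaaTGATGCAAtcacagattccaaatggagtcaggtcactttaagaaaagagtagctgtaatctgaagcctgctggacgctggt
The first base of the match lies 193 bases before the start in Chac1, 23 in Asns, 112 in Herpud1, 112 for the first of the 2 matches in Aars, 4 in Slc1a4 and 31 in Serpinf1. Their differences here and on chip 1 were -2.42 and -2.93 for Chac1, -1.18 and -1.10 for Asns, -0.80 and -0.62 for Herpud1, -0.68 and -0.59 for Aars, -0.42 and -0.55 for Slc1a4 and -1.38 and -1.08 for Serpinf1. Serpinf1 had 10.35, 10.37, 10.53 and 10.45 in KO and 11.58, 11.86, 11.92 and 11.85 in WT.

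Atf4 lies on chromosome 15. In the gene order of RefSeq GRCm38.p6, 25 genes within 25 protein-coding genes on either side of Atf4 were tested, and 9 of them were called, 2 higher and 7 lower. That is 36.0%, against 19.6% of the 316 tested genes of the chromosome. Slc25a17, which carries cofactors across the peroxisomal membrane and lies 11 genes from Atf4, was the highest called gene of the whole comparison, with 9.56, 9.24, 9.04 and 9.03 in KO and 7.92, 7.82, 7.62 and 7.51 in WT, 2.83-fold higher (adjusted p = 4.24e-05). Mgat3, a glycosyltransferase of N-glycans 2 genes away, had 8.29, 8.29, 8.03 and 8.06 in KO and 9.62, 9.60, 9.52 and 9.71 in WT, 2.72-fold lower. Rps19bp1, which is next to Atf4, was 2.47-fold lower, and Sun2, of the nuclear envelope and 13 genes away, fell by 0.61 on the log2 scale. These 4 genes were also called on chip 1 with the same sign, at 1.72 for Slc25a17, -1.70 for Mgat3, -1.79 for Rps19bp1 and -0.96 for Sun2. The rest of the 9 were not called on chip 1. Their differences here and on chip 1 were 0.52 and -0.20 for Maff, -0.68 and 0.17 for Kdelr3 and -0.44 and -0.00 for Cbx7. Those of Rangap1 were -0.34 and 0.05, and those of Tef -0.33 and -0.15. Changes in transcript level and changes in the bases under a probe cannot be told apart here.

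Sterol synthesis was lower across most of its steps. The pathway builds cholesterol from acetyl-CoA through mevalonate and squalene, under the control of SREBP2. Of 17 tested genes, 14 were lower in KO (82.4%, against 10.8% of all genes) and 0 higher, with a median of -0.88. The mean level of the 17 genes lay between 8.46 and 8.71 in KO and between 9.38 and 9.49 in WT, with no overlap. Mvd, which makes isopentenyl diphosphate, had 6.36, 6.49, 6.17 and 5.67 in KO, where 3 of 4 arrays detected it. It had 7.77, 8.08, 8.17 and 7.93 in WT and was 3.51-fold lower (-1.81 ± 0.17). Stard4, a carrier of cholesterol inside the cell, had 9.21, 9.21, 9.13 and 9.26 in KO and 10.72, 10.68, 10.71 and 10.61 in WT, 2.79-fold lower, and the arrays of each genotype lay close together. The other enzymes named here were lower by less. Nsdhl was 2.20-fold lower, Fdps 1.97-fold and Msmo1 1.78-fold, and Lss, which closes the sterol rings, was 2.45-fold lower. The members not called were Pmvk (-0.05), Fdft1 (-0.34) and Srebf2 (-0.30), which encodes SREBP2 itself.

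Fatty acid synthesis followed in part, with 5 of 11 tested genes lower, 0 higher and a median of -0.30. Scd1, which puts the double bond into stearate, had 8.44, 8.54, 8.50 and 8.17 in KO and 10.13, 10.03, 9.94 and 9.81 in WT, 2.96-fold lower. Its relative Scd2 was 1.49-fold lower. Acss2 and Acly, which supply acetyl-CoA, were 1.45-fold and 1.39-fold lower. Fasn, the fatty acid synthase, had a difference of -0.30 and was not called. With the Eif2s3y covariate 2 of the 11 were lower. With median centring 6 of the 17 sterol genes and 1 of the 11 fatty acid genes were called lower, and with centring on the tested genes 14 and 5.

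Chaperones of the endoplasmic reticulum, which fold secreted and membrane proteins, were lower too. Of 13 tested genes for such chaperones and for the degradation of misfolded ER proteins, 10 were lower (76.9%) and 0 higher, with a median of -0.63. The mean level of the 13 lay between 8.47 and 8.54 in KO and between 9.05 and 9.21 in WT. Hsp90b1, the ER form of HSP90, had 9.89, 9.81, 9.67 and 9.54 in KO and 10.70, 10.96, 10.68 and 10.69 in WT, 2.04-fold lower. The disulfide isomerases Pdia3 and Pdia4 were each 1.83-fold lower. Xbp1, a transcription factor of the unfolded protein response, had 10.37, 10.58, 10.69 and 10.63 in KO and 11.41, 11.31, 11.55 and 11.42 in WT, 1.81-fold lower. Hspa5, which encodes BiP, fell by 0.65 on the log2 scale but its genotypes overlapped, with 6.47, 6.08, 5.65 and 5.47 in KO and 6.90, 6.88, 6.51 and 5.97 in WT. With median centring 1 of the 13 was called lower, and without KO replicates 7 and 8, an alternative added after the data were seen, 5 were.

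Genes of dividing cells formed the list with the largest median fall among those with 10 or more tested members. Mature neurons are known not to divide, and which cells of the cultures carried these transcripts was not tested. Of 20 tested genes, 18 were lower in KO (90.0%) and 0 higher, with a median of -1.04 and a mean level between 7.55 and 7.76 in KO and between 8.54 and 8.72 in WT. Cdk1, which drives entry into mitosis, had 7.71, 7.58, 7.69 and 7.27 in KO and 8.91, 8.93, 8.78 and 8.95 in WT, 2.52-fold lower. Cdca3, of mitotic entry, was 2.27-fold lower and Rrm2, which supplies deoxynucleotides, 2.24-fold. Mcm5, of the replicative helicase, had 9.43, 9.32, 9.26 and 9.38 in KO and 10.38, 10.28, 10.40 and 10.55 in WT, 2.08-fold lower. Top2a, the mitotic topoisomerase, and Mki67, which encodes the Ki-67 antigen, fell by 1.33 and 1.04 on the log2 scale. Pclaf, a PCNA partner outside the list, had 5.66, 6.71, 6.94 and 5.41 in KO, where 2 arrays detected it, and 8.40, 8.40, 8.38 and 8.48 in WT, 4.71-fold lower. The members not called were Mcm7 (0.02) and Pcna (-0.41). The count was 18 with the Eif2s3y covariate, 11 with median centring and 14 without KO replicates 7 and 8. With centring on the tested genes the lower counts were 18 for dividing cells and 10 for ER chaperones.

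Part of the markers of other cell types of the cortex were lower as well. Members not called reached 0.11 among progenitors and 0.32 among astrocytes. Of 2 tested erythroid genes, 0 were called (-0.35 and 0.17). In RNA from whole cultures, fewer cells of a type and less RNA per cell cannot be told apart. Of 11 tested marker genes of progenitors, radial glia among them, 5 were lower and 0 higher, with a mean level of 8.03 to 8.17 in KO and 8.48 to 8.81 in WT. Hes5, a Notch effector that keeps progenitors undifferentiated, had 6.97, 7.00, 7.17 and 6.99 in KO and 9.21, 8.64, 8.52 and 9.20 in WT, 3.62-fold lower. Sox2 was 1.81-fold lower and Notch1 1.47-fold, and Eomes, of intermediate progenitors, was detected on 4 WT arrays and no KO array and was at least 1.35-fold lower, a direction fixed by the filter that leaves 4 other lower genes. Pax6, Emx2, Fabp7 and Sox1 were detected on no array.

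Of 7 tested astrocyte genes, 5 were lower and 0 higher, with a mean level of 7.96 to 8.12 in KO and 8.64 to 8.78 in WT. Aqp4, the water channel of astrocyte endfeet, had 6.48, 6.23, 6.50 and 6.09 in KO and 7.97, 7.81, 7.98 and 8.18 in WT, 3.16-fold lower. Aldh1l1 was 1.91-fold lower, Gja1, which encodes connexin 43, 1.80-fold, and the glutamate carrier Slc1a3 1.59-fold. Gfap and S100b were detected on no array. Of 4 tested genes of the oligodendrocyte lineage, 3 were lower: Olig1 (9.70, 9.59, 9.65 and 9.63 in KO, 11.15, 10.89, 10.71 and 11.03 in WT, 2.47-fold), Cspg4 (1.51-fold) and Pdgfra (1.47-fold, detected on 2 KO and 4 WT arrays). Mog, Sox10 and Olig2 were detected on no array. Of 7 tested genes of microglia and macrophages, 3 were lower, all near background in KO. Cx3cr1 was detected on 0 KO and 4 WT arrays (at least 1.34-fold lower, a direction fixed by the filter), and C1qb and C1qc on 1 KO and 3 WT arrays each, so that no fold is given for them. The list had a mean level of 6.28 to 6.63 in KO and 6.63 to 6.96 in WT. That count was 0 without KO replicates 7 and 8, and 1 without WT replicate 8.

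Connective tissue genes showed wide gaps on chips 2 and 3, and their chip 1 differences are given further on. All 6 genes of meninges and fibroblasts that were tested were lower, of 15 on the array, while Col1a2, Col3a1, Col6a2, Foxc1, Lum and Ogn were detected on no array. The mean level of the 6 lay between 6.57 and 6.82 in KO and between 7.79 and 7.91 in WT. Mgp, matrix Gla protein, which inhibits calcification, had 7.44, 7.56, 7.64 and 7.63 in KO and 9.49, 9.83, 9.71 and 9.65 in WT, 4.29-fold lower (-2.10 ± 0.09). Col1a1, of type I collagen, was detected on 4 WT arrays and no KO array and was at least 1.88-fold lower, a direction fixed by the filter that leaves 5 other lower genes. Igf2 was 1.98-fold lower and Pdgfrb, the receptor of mural cells, 1.75-fold. Among the 15 lowest genes, Loxl1, which crosslinks elastin, had 7.18, 7.02, 7.36 and 6.92 in KO and 9.20, 8.71, 8.83 and 9.20 in WT, 3.64-fold lower. Tgfbi, an adhesion protein of the matrix that 3 of 4 KO arrays detected, was 3.54-fold lower. Actg2, an actin of smooth muscle, was 3.48-fold lower. Of 4 tested genes of endothelium and pericytes, 3 were lower, Flt1, a VEGF receptor, by 2.02-fold, Pdgfrb, which is on both lists, and Eng, which 1 KO array and 4 WT arrays detected and whose call 16 of 28 alternatives lost. Pecam1, Cdh5 and Tek were detected on no array. With median centring the lower genes numbered 2 for progenitors, 1 for astrocytes, 1 for the oligodendrocyte lineage, 0 for microglia, 4 for meninges and 1 for endothelium, and with centring on the tested genes 5, 5, 3, 3, 6 and 2.

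**Figure D3:**
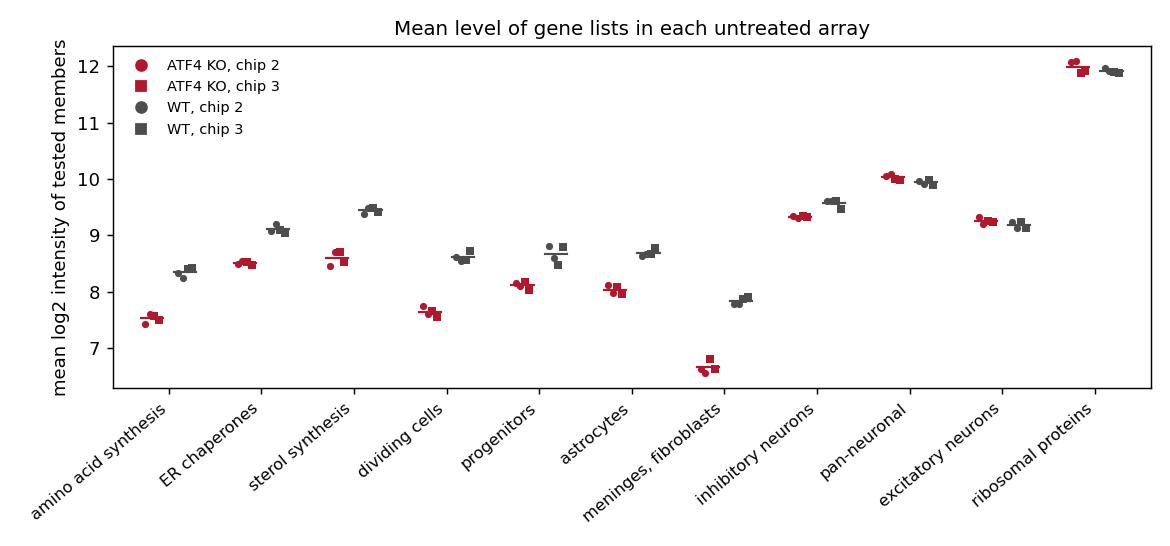
Mean log2 intensity (vertical) of the tested members of 11 gene lists, by array: KO in red at the left of each pair and WT in grey at the right, circles for chip 2, squares for chip 3, bars for the mean of 4 arrays. The genotypes do not overlap for the 8 lists from amino acid synthesis to inhibitory neurons, and their points lie close together for pan-neuronal, excitatory and ribosomal genes. Levels of different lists are not comparable, since probes differ in brightness.

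Neuronal genes were close to WT. Of 12 tested pan-neuronal genes, 2 were higher, against 9.77% of all genes, and 0 lower. The count of higher genes was 1 without KO replicate 5 or WT replicate 8. The median of the 12 was 0.03, equal to that of all genes. Nefm, the medium neurofilament, had 8.91, 9.08, 8.68 and 8.65 in KO and 8.53, 8.30, 8.37 and 8.09 in WT, 1.42-fold higher. Elavl4, an RNA-binding protein of neurons, was called higher on its brightest probe, which 4 KO arrays and 2 WT arrays detected, a call lost in 10 of 28 alternatives, and a further probe gave 0.14. Stmn2 (0.03 ± 0.08), Map2 (0.03 ± 0.14) and Tubb3 (-0.22 ± 0.14) were not called. Of 18 tested genes of synaptic vesicles and release, 1 was lower, Cplx1 (1.27-fold), and the median was 0.02. With the Eif2s3y covariate 0 of the 18 were lower.

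Excitatory cortical neurons gave 4 genes higher and 1 lower of 12 tested, against 9.77% and 10.8% of all genes, with a median of -0.03. Fezf2, which specifies deep-layer projection neurons, had 11.40, 11.53, 11.63 and 11.58 in KO and 10.78, 10.66, 10.79 and 10.75 in WT, 1.73-fold higher (0.79 ± 0.07). Slc17a6, the vesicular glutamate transporter VGLUT2, had 10.19, 10.36, 10.38 and 10.31 in KO and 9.46, 9.77, 9.66 and 9.58 in WT, 1.62-fold higher. Slc17a7, its relative VGLUT1, went the other way, with 5.50, 5.29, 5.70 and 5.44 in KO, of which 1 array detected it, and 6.47, 5.99, 6.10 and 6.26 in WT, where 4 did. It was called lower, with its KO level near background. Neurod2 was 1.33-fold higher and Sox5 rose by 0.31 on the log2 scale. Among 9 tested genes of inhibitory neurons, 5 were lower and 1 higher. Npy, neuropeptide Y, had 9.03, 9.13, 9.26 and 9.08 in KO and 9.85, 9.64, 9.94 and 9.82 in WT, 1.62-fold lower. Calb2, which encodes calretinin and which 3 of 4 KO arrays detected, was 1.71-fold lower and Sst, somatostatin, 1.33-fold. Nkx2-1, a factor of the ventral telencephalon, was 1.35-fold higher. Gad1, which makes GABA, was not called (-0.16). With the Eif2s3y covariate the count of lower genes was 1, with median centring 0 and with centring on the tested genes 2. Leaving out any single array other than WT replicate 8 gave 2 or 3 lower genes.

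Calls among receptor and channel genes are read against the 20.6% of all genes called. Of 9 tested glutamate and GABA receptor genes, 1 was higher, the AMPA receptor subunit Gria3 (detected on 4 KO and 2 WT arrays). Its further probe gave -0.15. With median centring, where the brightest probe was chosen anew and may be the further one, the gene stood at -0.12. Its call was lost in 15 of 28 alternatives. Of 17 tested potassium, sodium and calcium channel genes, 3 were higher, against 9.77% of all genes, and 0 lower. Kcnc4, a voltage-gated potassium channel, had 8.88, 9.19, 9.44 and 9.09 in KO and 8.42, 8.23, 8.41 and 8.48 in WT, 1.70-fold higher. Cacna2d1 and Cacna1c, subunits of voltage-gated calcium channels, were 1.42-fold and 1.33-fold higher.

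Immediate early genes, which activity and growth factors induce, moved both ways, with 6 of 13 tested higher, 2 lower and a median of 0.20. Of all genes, 9.77% were higher and 10.8% lower. Fosl2, an AP-1 subunit, had 10.07, 10.34, 10.42 and 10.13 in KO and 9.36, 9.45, 9.45 and 9.39 in WT, 1.78-fold higher. Npas4, an activity-induced factor of neurons, rose by 0.73 on the log2 scale and the nuclear receptor Nr4a2 was 1.53-fold higher. Jund (0.30), Homer1 (0.39) and the phosphatase Dusp6 (0.46) were the other 3 higher members. Egr1, a zinc finger factor, had 9.32, 9.78, 9.55 and 8.92 in KO and 11.08, 10.69, 10.35 and 10.76 in WT, 2.51-fold lower, and Ier3 was 2.03-fold lower. Fos (0.09) and Arc (0.13) were not called.

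Among other stress lists, those of heat shock, NRF2 and glutathione genes held lower genes and 0 higher ones. The list of p53 targets and apoptosis genes held 0 lower and 1 higher. These counts are read against 10.8% lower and 9.77% higher of all genes. Of 12 tested heat shock genes, 3 were lower, the small heat shock protein gene Hspb1 (2.31-fold), the co-chaperone Bag3 (2.02-fold) and Hsph1 (1.45-fold). Of 11 NRF2 antioxidant genes, 3 were lower (1 without WT replicate 8, 1 with the Eif2s3y covariate, 0 with median centring and 3 with centring on the tested genes), Hmox1, the peroxiredoxin Prdx1 (11.62, 11.60, 11.61 and 11.34 in KO, 12.31, 12.20, 12.25 and 12.34 in WT, 1.66-fold) and the sulfiredoxin Srxn1 (1.42-fold). Of 14 glutathione enzymes and transferases, 6 were lower and 0 higher, led by the transferases Gsta4 (7.32, 6.77, 6.96 and 7.28 in KO, 8.51, 8.12, 8.18 and 8.74 in WT, 2.47-fold), Gstm1 (1.59-fold) and Gstp1 (1.41-fold) and the peroxidase Gpx1 (1.36-fold). With median centring 1 of the 14 was lower, with centring on the tested genes 7, and without KO replicates 7 and 8, 2 were. Of 11 p53 targets and apoptosis genes, 1 was called, Bcl2 (1.37-fold higher, a call lost in 14 of 29 alternatives), and its further probes gave -0.41, 0.11 and 0.28. Ifit2, the only tested gene of the interferon response, was 1.79-fold lower, while 12 others were on the array without passing the filter.

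Among metabolic and housekeeping lists, 6 of 17 genes of hypoxia and glycolysis were lower and 2 higher. The proline hydroxylase Egln3 was 1.89-fold lower and phosphofructokinase Pfkp 1.77-fold, each detected on 3 of 4 KO arrays. Phosphoglycerate kinase Pgk1 was 1.33-fold lower, and the regulator Pfkfb3 was 1.42-fold higher. Of 52 tested subunits of the respiratory chain and ATP synthase, 16 were lower (30.8%) and 1 higher, with a median of -0.17. Uqcrh, of complex III, had 11.62, 11.93, 12.07 and 11.96 in KO and 12.81, 12.70, 12.86 and 12.69 in WT, 1.83-fold lower, and Cox7a2 was 1.55-fold, Cox6b1 1.44-fold and Ndufb3 1.44-fold lower. With the Eif2s3y covariate 5 of the 52 were lower and 2 of the 17, and with median centring 0 of each. With centring on the tested genes 9 of the 52 and 6 of the 17 were lower. Without WT replicate 8 the counts were 7 of the 52 and 3 of the 17, and leaving out any other array gave 8 to 13 of the 52. Cox6a2, the muscle form of a cytochrome oxidase subunit and outside the list, had 5.17, 5.78, 5.60 and 5.57 in KO, where 1 array detected it, and 8.16, 8.21, 8.68 and 8.39 in WT, which detected it on every array (adjusted p = 1.97e-05). Its KO level was near background, so that no fold is given.

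Of 48 tested cytosolic ribosomal protein genes, 1 was called, Rpl29 (9.24, 9.18, 9.00 and 9.20 in KO, 8.11, 8.37, 8.42 and 8.44 in WT, 1.77-fold higher), and the median was 0.03. Of 18 translation initiation factor genes, 3 were higher, against 9.77% of all genes, and 0 lower. The 3 were Eif3e (1.40-fold), Eif4e (1.28-fold) and Eif2b3 (1.23-fold). The call of Eif3e was lost in 17 of 29 alternatives, and the count of higher genes was 0 without KO replicate 8 or WT replicate 8 and 1 without KO replicate 5. Of 26 proteasome genes, 3 were lower and 1 higher, with 1 lower without any one of KO replicates 5 and 7 or WT replicates 6, 7 and 8, 0 lower with the Eif2s3y covariate and 1 with centring on the tested genes. Of 19 autophagy genes, 2 were higher, which is near the 9.77% of all genes. Shares of 11.5% lower in the proteasome list and of 0.0% lower in the ribosomal list lie near or under the 10.8% of all genes.

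Atg3, which conjugates lipid to LC3 during autophagosome formation, was the next highest called gene after Slc25a17, with 9.15, 8.75, 8.49 and 8.46 in KO and 7.48, 7.43, 7.17 and 7.01 in WT, 2.71-fold higher. In the fit given further on, it stood at 1.43 on chips 2 and 3 and at -0.03 ± 0.34 on chip 1. That gap was not called (limma, adjusted p = 0.0869). The other higher autophagy gene was Atg10 (1.35-fold, a call lost in 14 of 29 alternatives), and the remaining 17, Atg7 (0.12) and Becn1 (0.07) among them, were not called. Cd200, a surface glycoprotein of neurons, had 8.87, 8.54, 7.89 and 7.75 in KO and 7.57, 7.10, 6.56 and 6.45 in WT, 2.53-fold higher, and chip 2 read higher than chip 3 in both genotypes. Blnk, an adaptor of B-cell signalling, was called higher, with 4 KO arrays and 2 WT arrays that detected it, and Bves, a cAMP-binding membrane protein, was detected on 4 KO arrays and no WT array and was at least 1.52-fold higher, a direction fixed by the filter. Prrt4, Nfkbil1, Lrrc40, Csrnp1, the sulfotransferase Chst8 and Ccdc184 were 1.99-fold to 2.20-fold higher. Pgap4, Zfp280c and the granzyme gene Gzmm were 1.94-fold to 1.99-fold higher. Of the 4 WT arrays, 3 detected Pgap4 and 3 detected Gzmm. The orphan receptor Gpr22, detected on 4 KO arrays and 1 WT array, completes the 15 highest called genes separated on both chips.

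Mfge8, a secreted protein that bridges phagocytes to dying cells, had 7.91, 7.95, 8.17 and 7.84 in KO and 9.92, 9.64, 9.83 and 10.32 in WT, 3.89-fold lower. Dbi, which binds acyl-CoA, had 10.34, 10.41, 10.14 and 10.60 in KO and 11.86, 12.33, 12.26 and 12.27 in WT, 3.49-fold lower. In both genes the highest KO array lay more than 1 log2 unit below the lowest WT array.

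**Figure D4:**
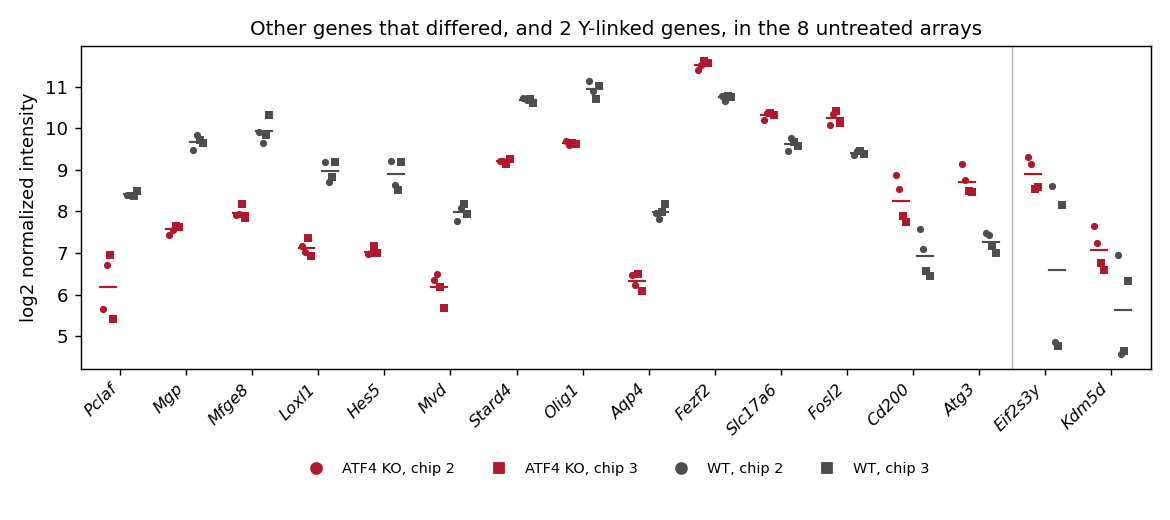
Log2 normalized intensity (vertical) of genes outside the ATF4 programme that differed and, right of the line, of 2 Y-linked genes, by array: KO in red at the left of each pair and WT in grey at the right, circles for chip 2, squares for chip 3, bars for the mean of 4 arrays. Eif2s3y and Kdm5d are near background on WT replicates 6 and 7 alone, whereas the genotypes do not overlap for the genes left of the line.

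The same contrast on chip 1, with 4 other untreated arrays a genotype, gave a second reading of the same genotypes. It was fitted with chips 2 and 3 over 16 arrays and 8608 genes, with a genotype difference for each set. Chips 2 and 3 called 1917 genes (22.3%) and chip 1 called 58 (0.674%). The log2 differences had an SD over genes of 0.30 on chips 2 and 3 and 0.18 on chip 1, and their Pearson r across genes was 0.32. Of the 1541 genes called over the 8 arrays, 1112 (72.2%) had the same sign on chip 1. The share over all genes was not counted, so the 72.2% has no baseline here. The difference between the sets itself was called for 489 genes (5.68%), of which 323 were lower on chips 2 and 3 than on chip 1 (3.75%). It was called for 432 genes with another estimate of the background spread, for 229 with the Eif2s3y covariate and for 24 with median centring.

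The lists divided in this respect. Genes of the ATF4 programme had close medians on both sets. Those of the 14 stress regulators in that fit were -0.35 on chips 2 and 3 and -0.43 on chip 1, and those of 13 amino acid synthesis genes -0.40 and -0.41. The medians of 14 transporters were -0.05 and -0.04, and those of 14 cytosolic tRNA synthetases -0.16 and -0.10, nearer 0 on both sets. Close medians do not show that single genes were alike. Slc7a3 was -2.81 on chip 1, Slc7a5 -1.33, Asns -1.10, Shmt2 -0.89 and Atf5 -1.25. The test of the difference was passed by 2 stress regulators, Chac1 (-2.93 on chip 1) and Nupr1 (-0.43), by Psat1 (-0.60) and Phgdh (-0.25), and by 0 of the 14 transporters and 0 of the 14 cytosolic tRNA synthetases in that fit. Of all genes in the fit 5.68% passed. The lists of stress regulators and of amino acid synthesis lay above that share, on few genes, and the other 2 lists below it.

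Sterol, ER and cell division genes differed between the sets. Of 17 sterol genes, 12 were lower on chips 2 and 3 than on chip 1 by that test, where the medians were -0.72 on chips 2 and 3 and -0.03 on chip 1. Stard4 had -0.10 on chip 1, Mvd -0.10, Lss 0.06 and Fdps 0.03. Of 13 ER genes, 9 passed, with medians of -0.51 on chips 2 and 3 and -0.01 on chip 1, and Pdia3 stood at 0.02 and Creld2 at 0.01 on chip 1. Of 22 cell division genes, 14 passed, with medians of -0.98 on chips 2 and 3 and -0.09 on chip 1, where Cdk1 had -0.11 and Mcm5 -0.06. Of 8 genes of meninges and fibroblasts, 4 passed, among them Col1a1 (-0.10 on chip 1) and Igf2 (0.40). Their medians were -0.67 on chips 2 and 3 and 0.05 on chip 1, where 1 of the 8 was called higher and 0 lower. Of 4 genes of endothelium and pericytes, 2 passed, with medians of -0.51 on chips 2 and 3 and 0.30 on chip 1. Outside these lists, Actg2 stood at 0.42 on chip 1 (adjusted p = 0.885, limma) and Tgfbi at -1.06. With the Eif2s3y covariate the counts were 8 sterol, 6 ER, 9 cell division and 4 meningeal genes, and with median centring 3, 0, 0 and 1. In the same fit Eif2s3y itself had a difference of 1.91 on chips 2 and 3, against -0.87 on chip 1 (adjusted p = 0.0532 in limma for the difference between them). The part of the Y-linked signal and of chip in these gaps was not tested further.

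**Figure D5:**
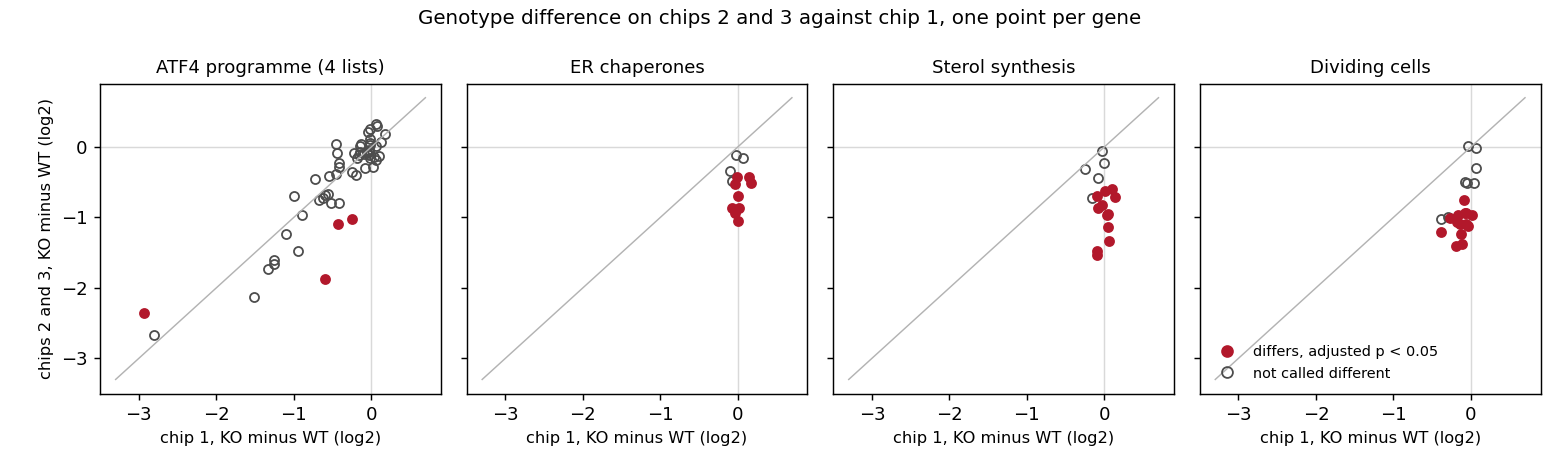
KO minus WT difference (log2) of each gene on chip 1 (horizontal) against chips 2 and 3 (vertical) in the fit over 16 arrays, for 4 lists of the ATF4 programme together, ER chaperones, sterol synthesis and dividing cells, with the line of equality. Filled red points passed the test of the difference between the sets. Most programme genes follow the line, whereas the other 3 lists lie near 0 on chip 1 and below 0 on chips 2 and 3.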

How the data were processed

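Total RNA from 24 samples was hybridised to Illumina Mouse Ref-8 arrays, and 8 untreated arrays enter the comparison. The deposited summary table holds bead intensities per probe, made with BeadStudio 1.5.1.3 per the file headers. Its detection score per probe, as deposited, is 1 minus a detection p-value. The authors' deposited log2 matrix was recomputed from these intensities as quantile-normalized log2 signals, and it served as an alternative. The submitters' processing notes name limma. Probes were named through GEO's platform annotation, which gives 20919 of 23983 probes a single symbol, 1 several and 3063 none.

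The 8 arrays were normalized together with neqc in limma 3.58.1 (R 4.3.3), with normexp background from the detection scores, offset 16 and quantile normalization. Probes detected at p under 0.05 on at least 4 of 8 arrays were kept, and the brightest probe stood for its gene. A model with genotype and chip was fitted with lmFit and eBayes, with Benjamini-Hochberg adjustment, and it was tested on simulated data. A bound replaces a fold where no array of a genotype detected the probe.

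The genes, lists and tests were chosen with earlier results of these data known. Named were 18 set genes with Atf4 among them, the 15 highest and 15 lowest called genes with both KO arrays on one side of both WT arrays on each chip, and for each of 36 lists up to 4 called members by p, or else the member of lowest p. Other members named to describe a list were chosen after their values were seen. The main fit does not pair samples by replicate number. Deviations of same-numbered arrays from their group means correlated at 0.29, -0.08, -0.10 and 0.16, which cannot decide whether the samples were paired. Alternatives changed the background, scaling, filter, probe rule, chip term, arrays and weights. Those with the Eif2s3y covariate, centring over tested genes and the fit without KO replicates 7 and 8 were added after seeing the data.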

Additional observations from a re-analysis of the deposited data

Results flagged for a closer look

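Of 262 groups of 4 arrays examined, 11 held 1 array far from the other 3 by Dixon's criterion, where chance gives about 1 in 20. In KO, Atf4 was 5.14 on replicate 6, against 4.76 to 4.80 on the others. Hes5 was 7.17 on KO replicate 7, and 6.97 to 7.00 on the others. KO replicate 8, the dimmest array, stood apart for 3 genes: Prdx1 at 11.34 (11.60 to 11.62 on the others), Alas2 at 6.18 (5.56 to 5.61) and Pfkp at 5.49 (5.78 to 5.82). WT replicate 5 stood apart for 3 genes: Psat1 at 10.07 (10.22 to 10.23), Dbi at 11.86 (12.26 to 12.33) and Egln3 at 7.10 (6.87 to 6.90). WT replicate 8 did for Lrrc40 at 6.43 (6.59 to 6.62) and Gpr22 at 4.75 (5.72 to 5.81), and WT replicate 6 for Hsp90b1 at 10.96 (10.68 to 10.70).

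Of the 131 named genes tested, 56 had a KO minus WT difference on chips 2 and 3 unlike that on chip 1 (limma). Of these, 45 were more negative and 11 more positive on chips 2 and 3. By the same test 489 of all 8608 genes differed (5.68%). Named genes were mostly chosen for being called or extreme on chips 2 and 3. That choice favours a gap from chip 1 and bears on its sign, so the count of 56 cannot be read against that share. Values are chips 2 and 3 minus chip 1. The 11 were Ccdc184 1.01, Cd200 1.00, Prrt4 0.87, Pgap4 0.84, Nfkbil1 0.83, Slc17a6 0.77, Fosl2 0.74, Bves 0.66, Zfp280c 0.66, Gzmm 0.62 and Chac1 0.58, and Chac1 was below WT on both sets of arrays. Of the ATF4 programme, Psat1 was at -1.29, Phgdh at -0.77 and Nupr1 at -0.66. Sterol and fatty acid genes were at -1.55 (Scd1), -1.44 (Stard4), -1.37 (Mvd), -1.19 (Nsdhl), -0.99 (Fdps), -0.80 (Msmo1), -0.57 (Acss2), -0.53 (Acly) and -0.52 (Scd2). The ER genes Hsp90b1, Pdia4, Pdia3 and Xbp1 were at -1.05, -0.91, -0.89 and -0.77. The division genes Pclaf, Cdk1, Cdca3, Mcm5 and Rrm2 were at -2.43, -1.25, -1.11, -1.03 and -0.74. Markers of other cell types were at -1.49 (Hes5), -1.34 (Igf2), -1.21 (Flt1), -1.02 (Col1a1), -0.88 (Olig1), -0.84 (Gja1), -0.73 (Pdgfrb) and -0.72 (Cspg4). Others among the lowest genes were Actg2 at -2.16, Mfge8 at -1.58, Dbi at -1.49 and Loxl1 at -1.47. The rest were Egr1 -1.18, Bag3 -1.14, Ier3 -0.80, Uqcrh -0.78, Wars2 -0.69, Cox7a2 -0.67, Prdx1 -0.64, Slc17a7 -0.63, Ifit2 -0.59, Hsph1 -0.54, Cox6b1 -0.52 and Pfkp -0.52.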

How the results depend on the processing

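Over 29 alternatives, 40 of the 128 called named genes kept their call in each one. Of 3769 single values, 3317 kept their side of the threshold, with a change of direction allowed only where neither fit called the gene. Ddit3, which was not called, ran from -0.20 to 0.24. Gria3 was the called gene that reversed, at -0.12 with median centring and -0.25 with centring over tested genes. The brightest probe was chosen anew in both settings, so these values may come from its further probe. The count of 1541 calls became 1375 with centring on the tested genes (611 higher, 764 lower), 193 with median centring over all probes (43 higher, 150 lower, all at 1.5-fold or more), 249 on chip 2 alone (38 higher, 211 lower, likewise), 164 on chip 3 alone (21 higher, 143 lower, likewise), 710 with the Eif2s3y covariate (240 higher, 470 lower) and 364 without KO replicates 7 and 8 (83 higher, 74 of them at 1.5-fold or more, and 281 lower). The single-chip fits and the last have fewer arrays. Calls at 1.5-fold or more were 30 higher and 189 lower without background correction, 35 and 229 in the deposited matrix, and 11 and 111 with all 24 arrays in the fit. The cause of these changes was not tested. Leaving out 1 array at a time gave 1013 to 1327 calls, 428 to 626 higher and 578 to 725 lower. WT replicate 8 set the lowest total, with 435 higher, and KO replicate 5 the lowest count of higher genes. With the replicate number as a block, 1198 genes were called (526 higher, 672 lower). The difference between chip 1 and chips 2 and 3 was called for 24 genes with median centring and 229 with the Eif2s3y covariate, against 489. Genes detected in one genotype alone have bounds and not folds, and levels of genes that only some arrays of a genotype detected lie near background.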
